A study of Mus musculus with 6 samples.

Results

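The genes described here are 10 homeobox transcription factor genes that divide the developing spinal cord along its dorsoventral axis: Gsx1, Gsx2, Pax7, Dbx1, Dbx2, Irx3, Pax6, Nkx6-2, Nkx6-1 and Nkx2-2. They were chosen by name and found on the array through the RefSeq accessions of its probes. All 10 were found, among 20021 gene symbols on the array, with 13 probes in total. RNA came from the trunk of mouse embryos at embryonic day 9.5, cut between the otic vesicle and somite 15 and including the forelimb buds. The groups were wild type and Arid3b-null, whose missing factor, Arid3b, binds DNA through an ARID domain. Each group had 3 arrays, and each array held RNA pooled from 4 embryos, so the spread between arrays is that between pools. The mutant allele, the strain and the number of somites of the embryos are not given in the sources used here.

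In the neural tube, Sonic hedgehog from the notochord and floor plate and BMP and Wnt signals from the roof plate set up stripes of progenitor cells, each of which makes its own class of neuron. Class I homeobox genes are repressed by Sonic hedgehog and mark dorsal and intermediate progenitors, whereas class II genes are induced by it and mark ventral progenitors. Pairs of class I and class II proteins repress each other, which sharpens the borders between stripes. A trunk sample also holds other tissues in which some of these genes are active: Pax7 in the dermomyotome, Pax6, Nkx6-1 and Nkx2-2 in the pancreas bud, and Irx3 in limb and trunk mesenchyme.

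Gsx1 and Gsx2, and Dbx1 and Dbx2, are the pairs in which both paralogues fell. The 250 bases before their annotated starts are shown because these genes moved together; the sequences are RefSeq's, on GRCm38.p6, read along the gene's strand. Capitals mark TATAAA, the core of a TATA box, and ACGTG, a form of the core of a hypoxia response element. Here ACGTG lies inside the palindrome CACGTG, which is also an E-box. The other form of the core, GCGTG, was not searched or marked.
Gsx1 (chr5:147188446-147188695, plus strand): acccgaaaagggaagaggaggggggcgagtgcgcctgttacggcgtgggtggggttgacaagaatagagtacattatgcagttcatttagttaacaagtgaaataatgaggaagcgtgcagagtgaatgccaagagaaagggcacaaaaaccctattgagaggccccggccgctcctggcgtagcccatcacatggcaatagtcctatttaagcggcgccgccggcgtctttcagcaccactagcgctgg
Gsx2 (chr5:75075351-75075600, plus strand): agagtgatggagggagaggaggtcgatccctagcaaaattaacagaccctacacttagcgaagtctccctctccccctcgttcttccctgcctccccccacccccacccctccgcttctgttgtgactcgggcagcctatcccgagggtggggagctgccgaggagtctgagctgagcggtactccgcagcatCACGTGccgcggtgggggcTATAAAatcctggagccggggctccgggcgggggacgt
Dbx1 (chr7:49636836-49637085, minus strand): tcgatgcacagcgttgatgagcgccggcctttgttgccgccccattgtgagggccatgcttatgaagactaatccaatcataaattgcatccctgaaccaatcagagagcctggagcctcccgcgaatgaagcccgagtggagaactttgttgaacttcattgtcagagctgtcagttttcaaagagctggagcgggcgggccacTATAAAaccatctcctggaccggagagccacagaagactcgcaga
Dbx2 (chr15:95654772-95655021, minus strand): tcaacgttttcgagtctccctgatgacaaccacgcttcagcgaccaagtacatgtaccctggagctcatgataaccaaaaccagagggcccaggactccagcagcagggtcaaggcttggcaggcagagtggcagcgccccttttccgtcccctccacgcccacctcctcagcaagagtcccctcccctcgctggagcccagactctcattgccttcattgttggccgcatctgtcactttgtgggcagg
Each motif was searched on both strands in these windows for all 10 genes, 11 windows with the second start of Pax6. TATAAA was found in 2 of the 11, Gsx2 at 38 bases and Dbx1 at 45 bases before the start, and in 12.4% of 32851 windows of the same length across the genome. ACGTG was found in 3 of the 11, those of Gsx2, Nkx2-2 and the second Pax6 start, and in 16.6% of all windows. The homeodomain core TAATTA was found in 0 of the 11 and in 4.84% of all windows. The G and C content of the windows was 47.6% to 65.2%, against a median of 52.4%. None of these 3 motifs was in all 4 of the windows shown.

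Values are log2 background-subtracted signals, given relative to each array's own 75th percentile, and a change is Arid3b-null minus wild type. That percentile lay between 611 and 844 signal units, and 60.7% to 68.1% of probes were well above background. The brightest probe of Arid3b changed by -1.69 ± 0.17 (SE), which leaves 31.0% of the wild-type signal (limma adjusted p = 0.00154). Its dimmer probes changed by -3.23 and -1.9, which leaves 10.6% and 26.9% (limma adjusted p = 0.000379 and 0.0013 over probes). Each of these was well above background on 2 null arrays. The markers of neural progenitors Sox1, Sox2, Sox3, Nes, Hes5, Fabp7 and Msi1 were all well above background on every array. In the same trunks 24 of 24 tested genes of a hypoxia response list rose, with Ndrg1 16.3-fold and Bhlhe40 15.2-fold higher (Bhlhe40 6.88-fold with normexp on each array's median background, hereafter the median background). The part of this in the values that follow was not tested.

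Of the 10 genes, 5 fell in the Arid3b-null trunks, 0 rose and 5 did not pass the test (limma, adjusted p under 0.05 over 19795 genes). Across all tested genes 12.9% fell and 13.6% rose, 26.6% in either direction. With normexp on each spot's local background none of the 10 passed, and 2 of all genes did. Both dorsal genes fell, as did 2 of the 5 class I genes and 1 of the 3 class II genes. For 7 of the 10 genes no wild-type array lay within the null range, and in 6 of these Arid3b-null was lower, while 46.2% of all tested genes did not overlap and 23.1% did so with Arid3b-null lower. The median change was -0.79 over the 10 genes and -0.04 over all tested genes. A bulk sample does not tell fewer cells of a stripe from less RNA per cell.

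**Figure D1:**
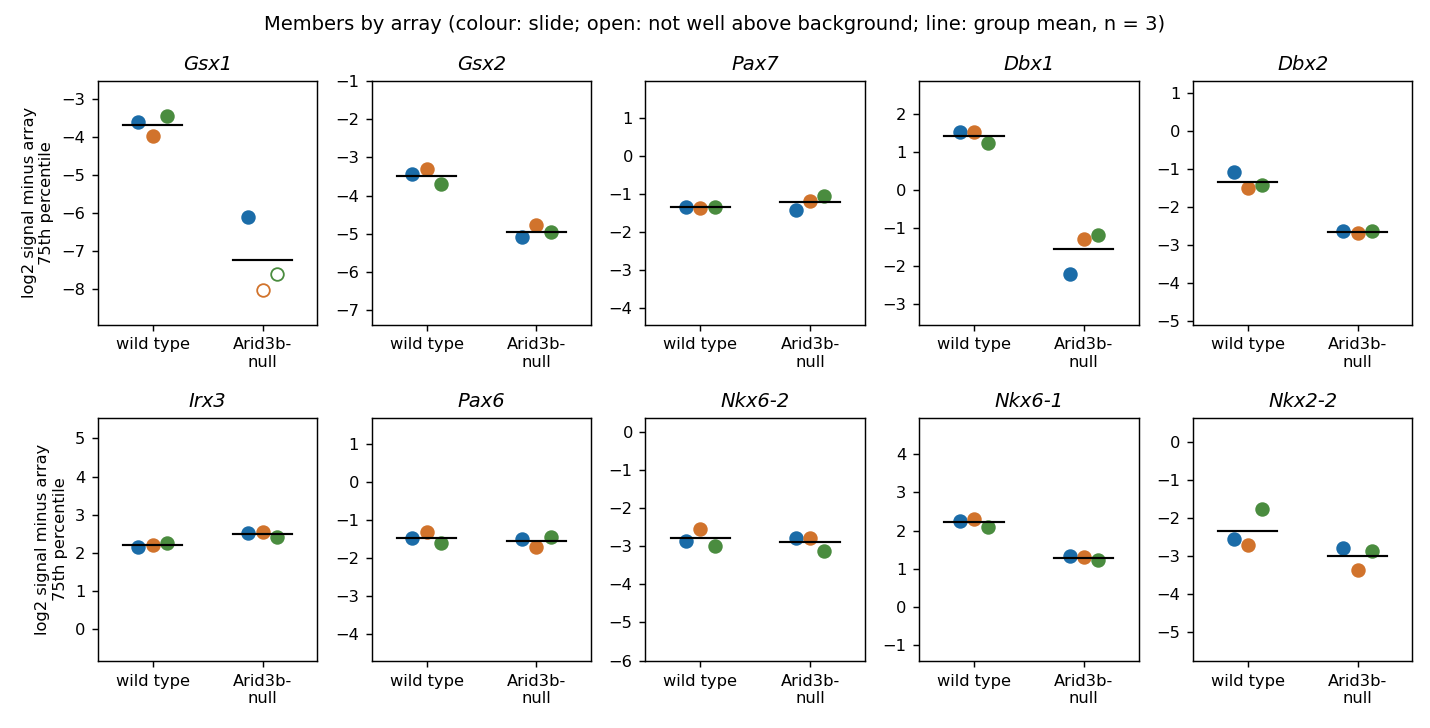
Log2 signal of each gene relative to the array's 75th percentile (vertical axes) in wild type and Arid3b-null, 1 point per array, with the slide in colour, open points for spots not well above background and a line at the mean of 3 arrays. Gsx1, Gsx2, Dbx1, Dbx2 and Nkx6-1 lie apart between the groups, while Pax7, Pax6 and Nkx6-2 overlap. Irx3, higher in Arid3b-null, and Nkx2-2, lower in it, do not overlap either, but did not pass the test.

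Gsx1 and Gsx2, formerly Gsh1 and Gsh2, specify dorsal interneuron progenitors. Gsx1 read -3.61, -3.98 and -3.45 on the wild-type arrays and -6.10, -8.02 and -7.61 on the Arid3b-null arrays. The groups lie far apart, and the null arrays spread more widely, at a mean of -7.24 ± 1.01 (SD, n = 3) against -3.68 ± 0.27 (SD, n = 3). The change was -3.56 ± 0.48 (SE), 11.8-fold lower (limma adjusted p = 0.00366), and it was -2.49, -4.04 and -4.16 within the slides. Only 1 of the 3 null arrays was well above background, and the fold depended on how background was handled, at 1.57-fold with the median background (limma adjusted p = 0.00591).

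Gsx2 fell by less than Gsx1 with the main values, but by nearly as much with the median background (-0.59 against -0.65). Its brighter probe read -3.43, -3.30 and -3.70 in wild type and -5.09, -4.78 and -4.97 in Arid3b-null. These arrays were tight within each group, and the change was -1.47 ± 0.15 (SE), 2.77-fold lower (limma adjusted p = 0.00145). With the median background it was 1.5-fold (limma adjusted p = 0.00679). The dimmer Gsx2 probe read -4.68, -4.87 and -4.26 in wild type and -6.88, -5.54 and -6.67 in Arid3b-null, a 3.39-fold fall (limma adjusted p = 0.0148 over probes) that did not pass with that background (adjusted p = 0.209).

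Of the class I genes, Dbx1 and Dbx2 fell. Dbx1 marks the progenitors of V0 interneurons next to the border between the dorsal and ventral cord, and Dbx2 spans a wider band around it. Dbx1 read 1.53, 1.5 and 1.23 in wild type and -2.22, -1.29 and -1.18 in Arid3b-null. In signal units these were 2430, 1740 and 1430 against 134, 252 and 295, and every null array was below every wild-type array. The change was -2.98 ± 0.28 (SE), 7.91-fold lower, which leaves 12.6% of the wild-type signal (limma adjusted p = 0.00127, 95% interval -3.65 to -2.32). The within-slide changes were -3.74, -2.80 and -2.41. All 6 Dbx1 spots carried no outlier mark and were well above background.

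Dbx2 read -1.10, -1.5 and -1.42 in wild type and -2.62, -2.69 and -2.62 in Arid3b-null. The null arrays were nearly alike, and the change was -1.31 ± 0.13 (SE), 2.48-fold lower (limma adjusted p = 0.00157, 95% interval -1.63 to -0.99). Within slides Dbx2 changed by -1.53, -1.19 and -1.21. With the median background it was 1.83-fold lower (limma adjusted p = 0.00109).

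The other class I genes did not pass the test. Pax7, which marks dorsal progenitors and the dermomyotome, read -1.33, -1.37 and -1.34 in wild type and -1.42, -1.18 and -1.05 in Arid3b-null. The groups overlap, with a change of 0.14 ± 0.12 (SE, limma adjusted p = 0.453, 95% interval -0.16 to 0.43). Of 17 tested genes of a dermomyotome and myotome list, 2 rose (0 without wild-type array 1 or the filter on dim probes, and 1 with the slide block, with median scaling or without wild-type array 2 or 3 or null array 1 or 2) and 5 fell, with Pax1 3.86-fold, Pax9 2.46-fold, Myog 1.93-fold and Myf6 1.72-fold lower. Pax1 and Pax9 are genes of the sclerotome, so their falls do not describe the dermomyotome. Of other genes on the list, Pax3 changed by 0.11 (limma adjusted p = 0.492), Dmrt2 by 0.23 (0.267) and Meox2 by -0.55 (0.0256). The summed level of the list was 5.08 to 5.16 on the wild-type arrays and 5.01 to 5.12 on the null arrays. The part of these tissues in the Pax7 value was not tested.

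Irx3, which lies dorsal of the motor neuron stripe and represses Olig2, read 2.14, 2.20 and 2.25 in wild type and 2.52, 2.54 and 2.42 in Arid3b-null. Every null array was higher, by 0.30 ± 0.10 (SE), but the limma adjusted p was 0.0671. Irx3 passed under quantile normalization (0.37, adjusted p = 0.0259) and with the authors' deposited values (0.37, adjusted p = 0.0448).

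Pax6, a broad gene of intermediate progenitors, was measured by 2 probes that differ. The brighter read -1.48, -1.31 and -1.61 in wild type and -1.51, -1.72 and -1.44 in Arid3b-null. These overlap, at a change of -0.09 ± 0.13 (SE, limma adjusted p = 0.646, 95% interval -0.40 to 0.22). The dimmer read -6.40, -5.93 and -5.74 in wild type, where no array was well above background, and -5.41, -4.73 and -4.93 in Arid3b-null. It was 1.99-fold higher in the fit (limma adjusted p = 0.0239 over probes), with no wild-type spot well above background. With the median background it was 1.19-fold higher and the call was lost (adjusted p = 0.232), as it was without wild-type array 1 (0.0657), wild-type array 2 (0.054), null array 2 (0.072) or null array 3 (0.0759).

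Among class II genes, Nkx6-1 fell and Nkx6-2 did not pass. Nkx6-1 marks the ventral progenitors of motor neurons and their neighbours and represses Dbx2. It read 2.26, 2.31 and 2.09 in wild type and 1.32, 1.31 and 1.22 in Arid3b-null, well apart and tight in both groups. Its change was -0.94 ± 0.11 (SE), 1.91-fold lower (limma adjusted p = 0.0023, 95% interval -1.19 to -0.68), and it was -0.94, -1.0 and -0.88 within slides. The pancreas bud, another site of Nkx6-1, is covered by a list of which 9 of 13 tested genes fell. The null signals of Gcg, the glucagon gene, and Ptf1a were raised to a floor, the lowest signal on each array that was well above background. Against it Gcg was 33.3-fold and Ptf1a 4.72-fold lower, or 5.04-fold and 1.36-fold with the median background. Insm1 (4.32-fold) and Neurod1 (3.35-fold, or 1.86-fold with the median background) fell too. The summed level of the list was 1.88 to 2.11 in wild type and 0.37 to 0.53 in Arid3b-null, and its part in the Nkx6-1 and Nkx2-2 values was not tested.

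Nkx6-2, the paralogue with a narrower stripe, read -2.85, -2.53 and -2.99 in wild type and -2.79, -2.79 and -3.11 in Arid3b-null. The groups overlap, and the change was -0.10 ± 0.16 (SE, limma adjusted p = 0.673, 95% interval -0.49 to 0.28). Nkx2-2, the most ventral gene of the set, read -2.56, -2.72 and -1.78 in wild type and -2.78, -3.36 and -2.87 in Arid3b-null. Every null array was lower, by -0.22, -0.64 and -1.09 within slides, yet the change of -0.65 ± 0.28 (SE) did not pass (limma adjusted p = 0.132, 95% interval -1.32 to 0.01). Its dimmer probe read -5.39, -5.58 and -5.59 in wild type and -7.26, -6.68 and -7.74 in Arid3b-null. It was well above background on 2 wild-type and 0 null arrays and was not tested. Against the floor used for Gcg it was 1.77-fold lower. Its spot on wild-type array 3 missed the mark at -5.59, above the floor of -5.82 there, so this is not a strict bound.

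**Figure D2:**
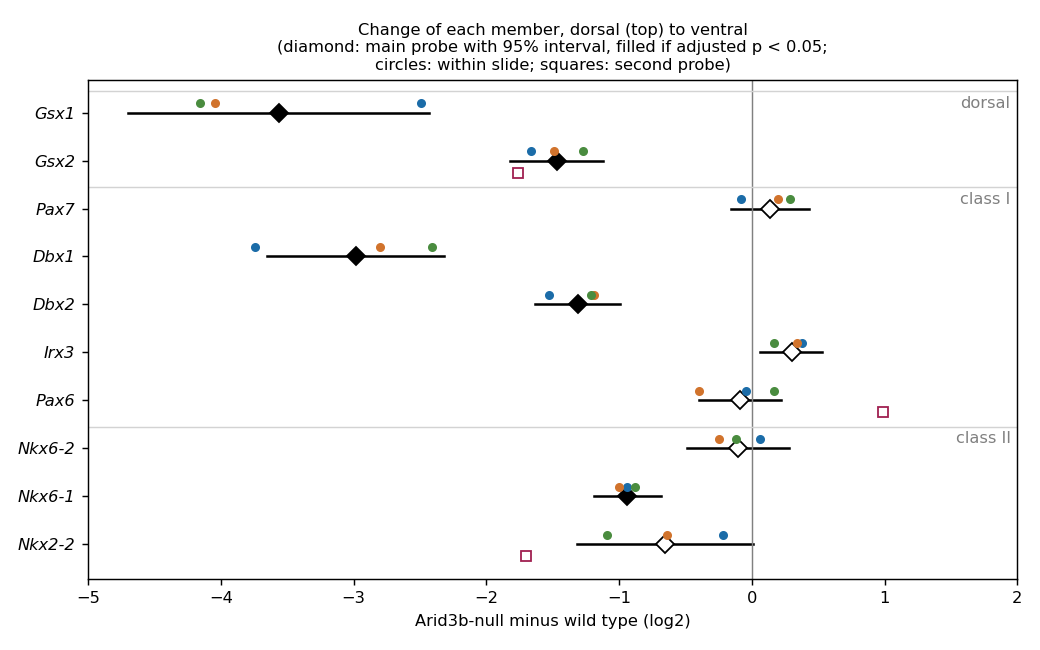
Log2 change of each gene, Arid3b-null minus wild type, with dorsal genes at the top and ventral genes at the bottom; diamonds are the main probe with its 95% interval, filled where adjusted p is below 0.05, and circles are the changes within each slide. The 5 filled diamonds are Gsx1, Gsx2, Dbx1, Dbx2 and Nkx6-1.

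The paralogues were compared within each array, as 4 pairs, by a two-sided exact permutation test over arrays, whose smallest possible p is 0.1. Dbx1 changed by -1.67 more than Dbx2, with log2 ratios of 2.62, 3.01 and 2.64 in wild type and 0.41, 1.4 and 1.44 in Arid3b-null (exact p = 0.1, 0.13 adjusted over the pairs). Nkx6-1 changed by -0.83 more than Nkx6-2, with ratios of 5.11, 4.84 and 5.09 against 4.11, 4.09 and 4.33 (exact p = 0.1, adjusted 0.13). Gsx1 changed by -2.09 more than Gsx2 (exact p = 0.1, adjusted 0.13), but by -0.06 with the median background (exact p = 0.8). With normexp on the local background the differences were -0.12 for Gsx1 and Gsx2 and -0.02 for Nkx6-1 and Nkx6-2. Pax6 and Pax7 differed by -0.23, with overlapping ratios (exact p = 0.3, adjusted 0.3).

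The 5 genes with the array pattern most like that of Dbx1, by Euclidean distance of the 6 centred values among 14184 genes with a symbol, were Try4 (0.54), Cryge (0.70), 2310002L09Rik (0.70), Ptf1a (0.71) and Svop (0.71). Ptf1a is a factor of dorsal spinal progenitors and of the pancreas bud. Try4, 2310002L09Rik and Ptf1a were well above background on all wild-type and 0 null arrays and Svop on 1 null array, so that their likeness to Dbx1 rests on null values near background. With the median background these were 1.18-fold, 1.51-fold, 1.36-fold and 1.67-fold lower, against 6.33-fold for Dbx1. Cryge, well above background on every array, fell 7.64-fold (limma adjusted p = 0.000119), or 2.74-fold with the median background.

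Among 26 other tested dorsoventral progenitor factors, 9 fell, 5 rose and 12 did not pass, with a median change of -0.17. The rises were 3 without wild-type array 1 or 3 or null array 1 or 2, and 2 without the filter on dim probes. Among those with the smallest adjusted p were Ptf1a, Prdm12 (1.85-fold lower) and Bhlhe22 (2.52-fold lower against the floor). Prdm12 marks V1 progenitors and sensory neurons. Bhlhe22 did not pass with the median background (adjusted p = 0.164).

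In the hedgehog pathway, which positions the class I and class II borders, 4 of 15 tested genes rose, 1 fell and 10 did not pass. The ligand Shh fell 1.58-fold (limma adjusted p = 0.0229), while the target Gli1 (1.51-fold, adjusted p = 0.0106) and the receptor and target Ptch1 (1.51-fold, adjusted p = 0.0304) rose. The co-receptors Cdon (1.70-fold) and Boc (1.44-fold) rose as well. Shh, Ptch1 and Boc each lost their call in 7 of 14 alternatives, with adjusted p of up to 0.0923, 0.105 and 0.0858 outside the local background, and Gli1 without a filter on dim probes (0.054). The losses included those without wild-type array 1 or 3 or null array 1 for all 3 genes, without null array 2 for Shh and Ptch1, without null array 3 for Ptch1 and Boc, and without wild-type array 2 for Boc. Of the list's 4 rises, 2 were left without wild-type array 1 or 3 or null array 1 or 3, and 1 without the filter on dim probes. Of the roof plate and retinoid list, 9 of 15 rose and 0 fell, with 5 rises left without wild-type array 1, null array 1 or null array 2, or without the filter on dim probes. The retinoic acid degrading enzymes Cyp26b1 (3.13-fold), Cyp26a1 (2.01-fold) and Cyp26c1 (4.14-fold, or 1.48-fold with the median background) and the receptor Rarg (1.87-fold) led it.

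The genes of neuron classes made by these stripes gave 8 falls, 3 rises and 7 that did not pass among 18 tested, with a median of -0.38, and 1 rise was left without wild-type array 1 or without the filter on dim probes. Lhx3, of motor neurons and V2 interneurons, fell 12.6-fold (limma adjusted p = 0.000779), or 4.76-fold with the median background. Lhx9 of dorsal commissural neurons fell 2.73-fold and Isl2 of motor neurons 2.22-fold, while Foxd3, of V1 interneurons and neural crest, rose 2.10-fold. Evx1, a gene of the V0 neurons that Dbx1 progenitors give rise to, was well above background on 2 of 3 arrays in both groups and was not tested, and En1 of V1 neurons on 0 arrays in both.

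Genes of neural progenitors at large, early neurons and neural crest give the scale of these changes. Among 17 tested pan-neural progenitor genes 7 fell, 1 rose (Pou3f1, a call lost in 12 of 14 alternatives) and 9 did not pass, with Fabp7 2.83-fold, Hes5 2.41-fold, Nes 1.98-fold and Pou3f3 2.89-fold lower (1.84-fold with the median background). Their summed level was 6.54 to 6.67 in wild type and 5.87 to 6.08 in Arid3b-null, while Sox2 changed by -0.02. Among 20 tested genes of early neurons 17 fell and 0 rose, with Elavl3 6.97-fold, Ina 6.87-fold, Slc18a3 6.37-fold and Nefl 4.12-fold lower (Slc18a3 3.51-fold with the median background). Of 12 tested neural crest genes 5 rose, with Tfap2a 2.26-fold and Erbb3 2.29-fold higher, although Erbb3 did not pass with the median background (limma adjusted p = 0.0579). The part of these shifts in the changes of the 10 genes was not tested.

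**Figure D3:**
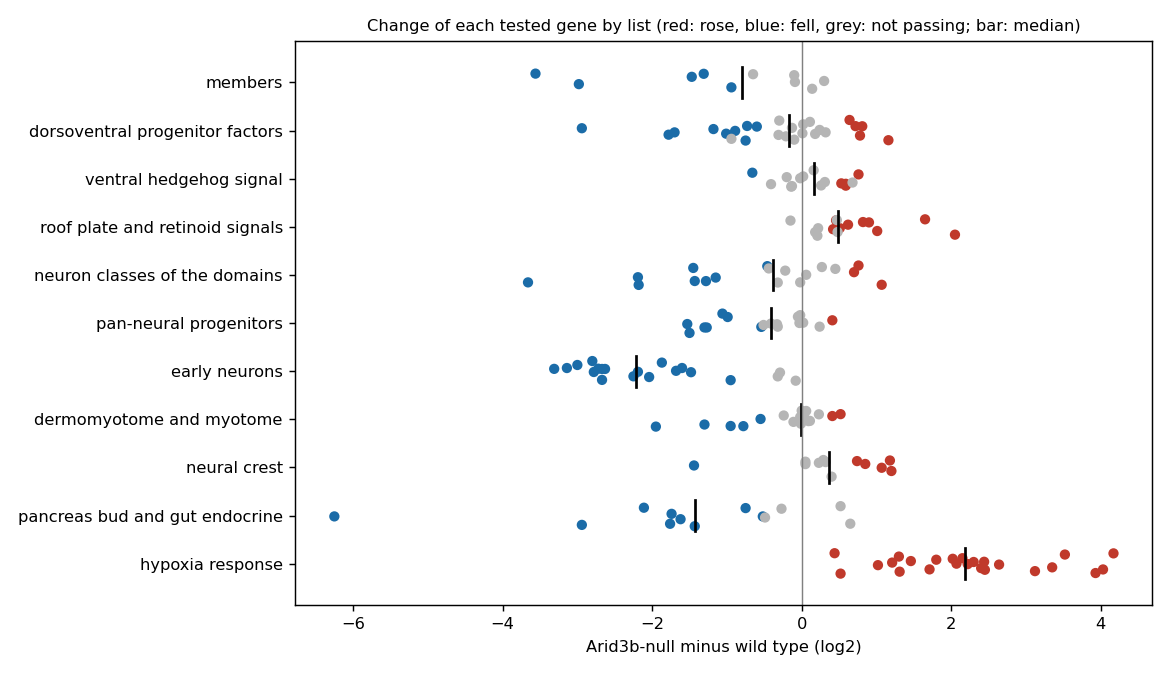
Log2 change, Arid3b-null minus wild type, of each tested gene in the 10 gene lists and the 10 homeobox genes, coloured by call, with a bar at the median of each list. The medians run from -2.22 for early neurons to 2.19 for the hypoxia response, with -0.79 for the homeobox genes.

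On a scale chosen after the data were seen, the 10 genes were also set against the mean of the 7 neural progenitor markers. That mean was 1.63 to 1.71 in wild type and 0.80 to 0.89 in Arid3b-null, a change of -0.83, although single markers ranged from -0.02 for Sox2 to -1.50 for Fabp7. The scale adds the same 0.83 to the change of every gene, so that 14843 of all 19795 tested genes (75%) rose on it and 1.56% fell, and a rise on it says nothing particular of a gene. Dbx1 remained lower relative to the markers, at -2.15 (limma adjusted p = 0.000333), or -1.87 with the median background (2.32e-05), where the marker mean changed by -0.79 and 0.652% of all genes fell and 89.2% rose. Gsx1 at -2.73, Gsx2 at -0.64 and Dbx2 at -0.48 passed as lower with the main values only. With the median background they were at 0.14 (adjusted p = 0.323), 0.20 (0.152) and -0.08 (0.535). Nkx6-1 was at -0.11 (limma adjusted p = 0.476) with the main values and at -0.13 (0.318) with the median background.

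**Figure D4:**
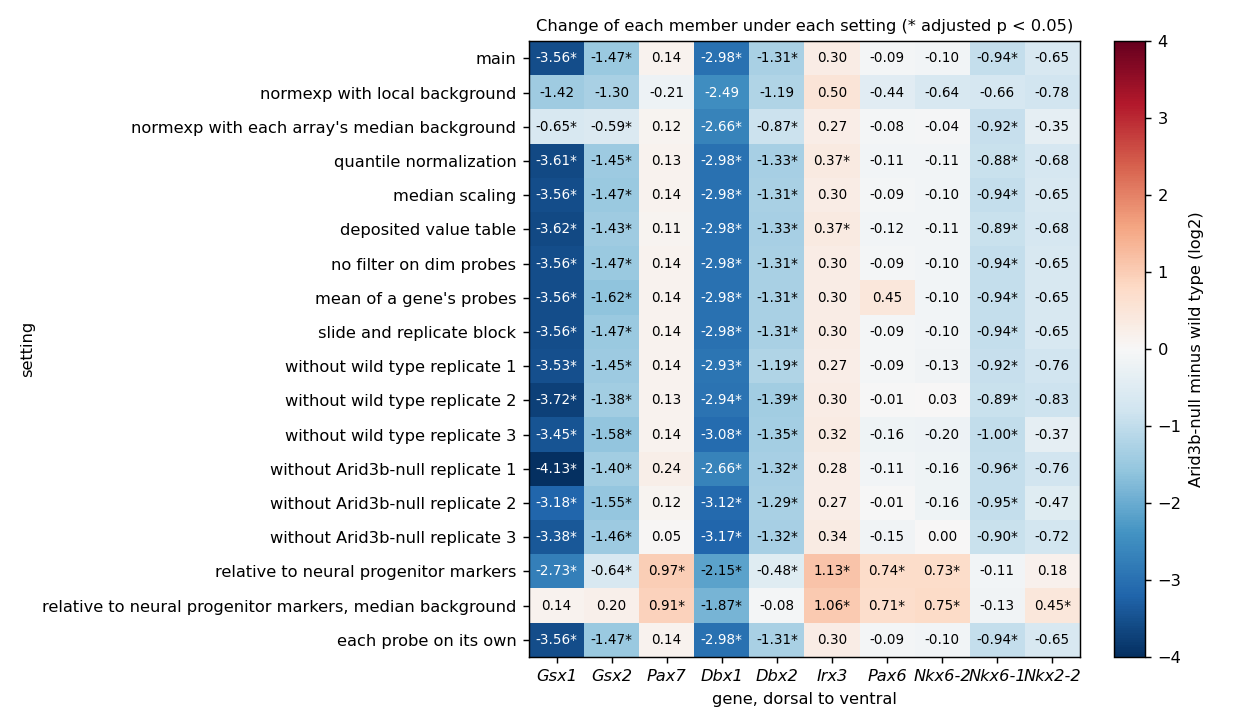
Log2 change of the 10 genes (columns, dorsal to ventral) under each processing setting (rows), with a star where adjusted p is below 0.05. No gene carries a star with normexp on the local background, where 0 of the 10 passed and 2 of all genes did.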

How the data were processed

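RNA of 6 trunk pools was amplified, Cy3-labelled and hybridised to Agilent arrays in 1 colour, per the labels' protocols. The deposited scanner values are intensity values, extracted with Feature Extraction 10.7.3.1, protocol GE1_107_Sep09, on design 026655 with mouse build mm9, per the file headers. The authors' deposited table, used as an alternative, has log2 values of 24181 probes, with a normalization not stated in these sources. Probe accessions were matched to RefSeq symbols of GRCm38.p6, which gave a symbol to 26424 of 39429 probes (67.0%).

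The main values are log2 of the processed signal minus the array's 75th percentile, without control spots or outlier marks. A probe was tested if well above background on all 3 arrays of a group, and the brightest probe stood for a gene. If all arrays of a group missed that mark, the fold was computed against a floor, the lowest signal on each array that reached it. A spot can miss the mark above this floor, so such a fold is not a strict lower bound. Tests used limma 3.58.1 (lmFit, eBayes) under R 4.3.3 (Benjamini-Hochberg, threshold 0.05). In simulated data for 19775 genes, log2 changes of 0.5, 1 and 2 were given to 67, 67 and 66 genes. Of these, 2.99%, 46.3% and 84.8% were recovered, with 3.26% false calls. On the real arrays 26.6% of tested genes were called, a far larger share than was changed in the simulation. Recovery with such a large share was not simulated and remains unknown.

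Each slide held a wild-type and a null array of 1 replicate number, per the file headers. Same-numbered arrays deviated together (correlations 0.16, 0.39 and 0.28), while those of different numbers had correlations of -0.35 to 0.12. Number and slide coincide, so these values cannot tell paired samples from an effect of the slide. The 10 genes and the lists were chosen with earlier results of these data known. Named genes are the 10, Arid3b, the 4 called genes of smallest adjusted p in each list, Shh, Ptch1, Gli1, Lhx3, Evx1, En1 and the 5 nearest to Dbx1. Some genes this rule names are not reported here.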

Additional observations from a re-analysis of the deposited data

How the results depend on the processing

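Of the 10 genes, 5 fell and 0 rose with normexp on the median background, median scaling and the slide and replicate block, and whichever array was left out. Of all genes, 2187 fell and 2351 rose with the median background, and 2066 fell and 2204 rose with median scaling. With the block, which pairs arrays of the same slide and number, 2428 of all genes rose and 2348 fell. Without it these were 2695 and 2561, and no call among the 10 genes changed. Normexp on the local background left 0 falls among the 10 and 2 rises and 0 falls among all genes, and the change of Pax7 turned to -0.21 there. The cause was not tested. Of the 10 genes, 1 rose under quantile normalization and in the deposited value table, and 4 relative to the neural progenitor markers. That scale adds 0.83 to every gene by construction, which turned Pax6 to 0.74, Nkx6-2 to 0.73 and Nkx2-2 to 0.18. On it with the median background 5 rose and 1 fell, with Gsx1 at 0.14, Gsx2 at 0.20, Pax6 at 0.71, Nkx6-2 at 0.75 and Nkx2-2 at 0.45. There 89.2% of all genes rose and 0.652% fell. Without a filter on dim probes, 1288 of all genes rose and 998 fell. Leaving out 1 array left 1660 to 2047 rises and 1205 to 2038 falls, with fewer samples in the fit. Averaging the probes of a gene, Pax6 changed by 0.45 and the difference between Pax6 and Pax7 by 0.32. Leaving out 1 array moved Nkx6-2 between -0.20 and 0.03, the highest without wild-type array 2, and it was 0.00 without null array 3. The dim signals of Gsx1 and Gsx2 limit their folds. Of 280 alternative counts of the lists, 61 moved by over 1.5 times or went from or to 0.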
